A study of Mus musculus with 3 samples.

Results

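The genes of the fenestral diaphragm and of caveolae were followed across the cell classes of the sorted mouse small intestine. They are Plvap, Cav1, Cav2, Cavin1, Cavin2, Cavin3, Ehd2, Ehd3 and Ehd4, 9 of the 32285 genes in the deposited matrices, and were chosen by symbol. The data are UMI counts (distinct RNA molecules tagged per cell) from 3 single-cell libraries that form 1 group, GUT. Each library pooled 4 wild-type C57Bl/6 females, 9 to 10 weeks old, whose small intestine without the duodenum was stripped of epithelium and digested for 60 min at 37 °C. Live cells that lacked CD45 and carried CD31 and podoplanin were sorted, so cells other than lymphatic endothelium are those that came through this gate. No treatment or genotype was compared, so every comparison is one of cell classes.

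Plvap encodes the protein that builds the diaphragms of endothelial fenestrae, caveolae and transendothelial channels, and it is a classic mark of fenestrated blood capillaries such as those of the intestinal villus. Caveolae are flask-shaped pits of the plasma membrane. Caveolins, the membrane-embedded proteins encoded by Cav1 and Cav2, form their bulb together with a peripheral coat of cavins. CAV1 and cavin 1 are needed for the pits to form outside striated muscle, while CAV2, cavin 2 and cavin 3 vary in amount between tissues. EHD proteins are ATPases that bind membranes. EHD2 sits at the neck of caveolae and holds them at the surface, and EHD3 and EHD4 act mainly in endosomal recycling, EHD4 with a described part beside EHD2 at caveolae.

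On GRCm38, Plvap lies at chr8:71497765-71511752 on the minus strand and overlaps Gtpbp3 on the plus strand. Cav2 (chr6:17281185-17289115) and Cav1 (chr6:17306335-17341452) lie on the plus strand with 17219 bases between them, and both overlap the antisense gene Gm15581. Cavin1 is at chr11:100956733-100970887 (minus), Cavin2 at chr1:51289126-51302960 (plus, overlapped by the antisense gene 9330175M20Rik) and Cavin3 at chr7:105480083-105482300 (minus). Ehd2 is at chr7:15946958-15967567 (minus), Ehd3 at chr17:73804134-73832094 (plus) and Ehd4 at chr2:120089175-120154606 (minus). All 9 are protein-coding in GENCODE M21. No source used here says whether counting used strand, so reads of overlapping partners may not be told apart.

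Promoters are shown for Cavin2, Cav1 and Cav2, which were highest in lymphatic cells, and for Ehd4, which was highest in blood endothelial cells. Each is the 250 bases before the start site in the RefSeq table for GRCm38.p6, where 7 of the 9 genes had an entry (9 entries in all), and is written 5′ to 3′ on the gene's own strand. Capitals mark matches on either strand to any of 8 words. One ETS-type word was CAGGAA, and the other such word, which ends in the same letters, was CCGGAA. The word typical of forkhead factors was TGTTTAC, that of Krüppel-like factors was CACACCC and that of GATA factors was AGATAA. The core promoter words were TATAAA for the TATA box, GGGCGG for the GC box, and the CCAAT box itself.
Cavin2, chr1:51288876-51289125 (+): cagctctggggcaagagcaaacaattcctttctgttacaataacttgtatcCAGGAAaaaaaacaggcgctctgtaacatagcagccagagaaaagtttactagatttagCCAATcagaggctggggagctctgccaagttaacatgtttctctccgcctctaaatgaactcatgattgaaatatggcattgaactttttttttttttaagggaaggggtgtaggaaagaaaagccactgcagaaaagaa
Cav1, chr6:17306085-17306334 (+): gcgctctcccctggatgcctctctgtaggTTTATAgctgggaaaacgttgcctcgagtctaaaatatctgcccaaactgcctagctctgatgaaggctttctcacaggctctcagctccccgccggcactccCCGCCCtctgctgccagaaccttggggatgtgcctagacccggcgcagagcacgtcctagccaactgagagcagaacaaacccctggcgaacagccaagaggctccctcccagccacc
Cav2, chr6:17280935-17281184 (+): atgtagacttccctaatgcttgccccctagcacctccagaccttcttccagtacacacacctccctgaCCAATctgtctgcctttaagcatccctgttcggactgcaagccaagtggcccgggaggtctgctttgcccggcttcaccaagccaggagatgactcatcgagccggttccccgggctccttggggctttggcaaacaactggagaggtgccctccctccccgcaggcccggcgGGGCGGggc
Ehd4, chr2:120154576-120154825 (-): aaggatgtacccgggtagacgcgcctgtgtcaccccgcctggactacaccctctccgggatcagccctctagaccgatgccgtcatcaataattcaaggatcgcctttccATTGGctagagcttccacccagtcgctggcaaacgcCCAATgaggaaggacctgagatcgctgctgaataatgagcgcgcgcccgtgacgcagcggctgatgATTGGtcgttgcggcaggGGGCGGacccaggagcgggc
The Cavin2 promoter held CAGGAA and CCAAT, which occur in 25.7% and 33.8% of the 32851 promoters of the table. Its GC content was 40.4%, against 58.0% to 67.6% in the other 8 entries and a median of 52.4% over the table. The shown Cav1 entry held TATAAA (12.4% of promoters) and GGGCGG (32.7%), and the Cav2 entry held GGGCGG and CCAAT. Ehd4 had 1 GGGCGG and 3 CCAAT matches. The word CCGGAA and those of forkhead, Krüppel-like and GATA factors, held by 12.0%, 3.17%, 6.93% and 9.99% of promoters, had no match in the 9 entries. These matches describe letters and show no binding.

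Classes were gated on raw UMIs. Lymphatic endothelial cells (LEC) had at least 1 Prox1 and 5 Lyve1 UMIs, and blood endothelial cells (BEC) at least 3 Flt1 and 0 Prox1 UMIs. Mural cells (smooth muscle cells and pericytes), fibroblasts and 5 further classes were gated on sums of fixed markers. After filters, 6359, 6707 and 9468 cells remained in libraries 1, 2 and 3, with medians of 7979, 7264 and 6698 UMIs. There were 18954 LEC, 206 BEC, 199 mural cells and 473 fibroblasts. Levels are UMI counts of a class sum as CPM, the share of the class total in the usual per-million unit,, given for libraries 1, 2 and 3 in that order or as mean ± SD (n = 3). In LEC 4 of 5 further lymphatic markers (Flt4, Pdpn, Ccl21a and Reln) were present at a summed 12609 to 13976 CPM, against 213 to 294 CPM in BEC, while Mmrn1 was listed at 0 in every class. Of the BEC, 75 (4, 22 and 49) also met another gate, mostly that of mural cells (67 cells) or fibroblasts (65 cells). These 75 had a median of 12871 UMIs and 3618 to 7718 CPM of further mural markers, against 5155 UMIs and 20.6 to 47.7 CPM in the 131 BEC that met no other gate. The latter are called single-gate BEC, and levels are given with and without the rest. Because whole classes are summed, fewer expressing cells and less RNA per cell cannot be told apart in a class level. Nothing in the labels says whether libraries shared animals, so p-values measure only the spread between these 3 pools.

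Plvap and Ehd4 were far higher in blood endothelium and Cavin2 in lymphatic endothelium, while Cavin1 and Ehd2 had overlapping ranges in both. LEC were tested against BEC on class sums over 13807 genes, of which 18.8% passed (8.83% higher in LEC, 9.99% higher in BEC). Cav1, Cav2 and Cavin2 were higher in LEC, and Plvap, Cavin3, Ehd3 and Ehd4 were higher in BEC. Cavin1 and Ehd2 did not pass. The median log2 fold change (LEC over BEC) of the 9 genes was -0.30, beside 0.09 over all genes tested. With LEC that had 0 Flt1 UMIs and met no other gate (18478 cells) against single-gate BEC, these calls held. Ehd2 was then also higher in BEC (-0.49, adjusted p = 0.0216). The 18.8% above belongs to the fit of all LEC and BEC, and no share over all genes is given for this restricted fit.

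**Figure D1:**
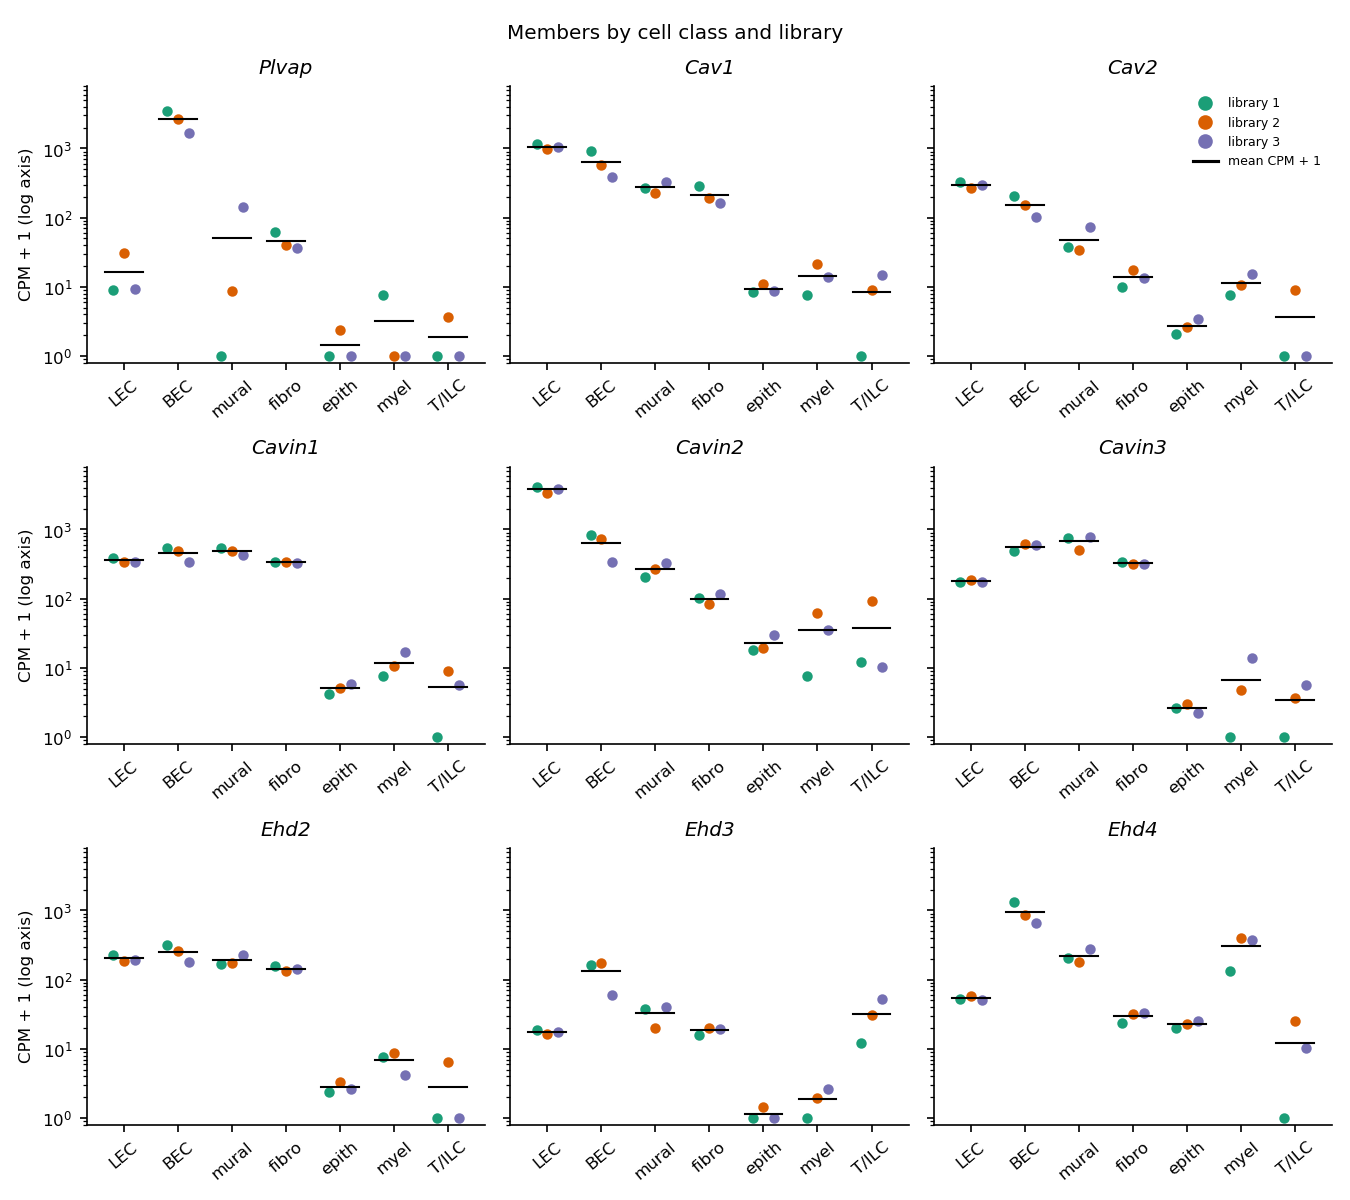
CPM + 1 of the 9 genes (log axis) in 7 cell classes. Points are libraries and the bar is the mean of CPM over the 3 libraries, plus 1. Plvap stands out in BEC, Cavin2 in LEC, and the levels of Cavin1 and Ehd2 lie close together in LEC, BEC, mural cells and fibroblasts (fibro). Epithelial (epith) and T or innate lymphoid (T/ILC) cells are low for nearly all, myeloid cells (myel) for all but Ehd4.

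Plvap measured 3517, 2683 and 1682 CPM in BEC and 7.99, 29.6 and 8.16 CPM in LEC. The class ranges lay far apart in every library. The ratio of class means was 172, and the log2 fold change, LEC over BEC, was -7.63 ± 0.44 (SE; edgeR adjusted p = 8.8e-06). In single-gate BEC the libraries moved closer together, at 3875, 3710 and 3304 CPM (log2 -8.18). Library 3 remained the lowest but lay nearer the others, and its 49 BEC that met another gate measured 1384 CPM.

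The little Plvap in LEC sat in few cells. In library 2, 925 of its 1252 UMIs (73.9%) came from the 28 of 5001 LEC with at least 3, and 891 UMIs from 20 LEC that also had at least 3 Flt1 UMIs. In libraries 1 and 3 the shares in cells with at least 3 UMIs were 13.6% and 31.7%. LEC with 0 Flt1 UMIs that met no other gate measured 7.58, 9.39 and 6.02 CPM. After thinning to 3000 UMIs per cell, Plvap was detected in 2.25% of LEC (exact 95% binomial interval 2.04 to 2.47, counting error only) and 95.3% of BEC (91.3 to 97.8). The unthinned values were 5.10% (median 7266 UMIs per cell) and 99.0% (median 7050 UMIs per cell). In epithelial cells, which should lack the gene, 0.358% of thinned cells held a UMI (median depth 24914 UMIs before thinning).

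Mural cells gave 0, 7.74 and 142 CPM of Plvap, and in library 3, 42 of 57 UMIs came from 1 cell. The difference between LEC and mural cells did not pass (log2 -0.99 ± 1.07, adjusted p = 0.502), and the direction turned without library 3 (2.05, adjusted p = 0.00154). Without library 1 it was -1.42 (adjusted p = 0.000387) and without library 2 -2.86 (adjusted p = 1.39e-08). The mural excess also passed with stricter gates (-4.75, adjusted p = 0.000336), with thinned cells (-1.65, adjusted p = 0.00678) and with LEC that had 0 Flt1 UMIs and met no other gate (-1.97, adjusted p = 0.0484). Stricter gates let cells with at least 3 Flt1 UMIs that met the mural gate count as mural cells, which then numbered 243. The part of these cells in the -4.75 was not tested. Fibroblasts gave 60.4, 39.5 and 35.6 CPM, above LEC in each library (log2, LEC over fibroblasts, -1.59 ± 0.44, adjusted p = 0.0217). Without library 3 that adjusted p was 0.1, and with no replicate block it was 0.074. Without library 2 the value was -2.42, with stricter gates -2.88, and with LEC that had 0 Flt1 UMIs and met no other gate -2.41. Stricter gates also let BEC that met the fibroblast gate count as fibroblasts (479 cells). The fibroblast UMIs sat in few cells too: 15 of 473 cells with at least 3 UMIs held at least 67.4% of them in each library. Fibroblasts held 183 Plvap to 18 UMIs of Cdh5, the endothelial cadherin, a ratio of 10.2. The same ratio was 2.54 in mural cells (71 to 28 UMIs), 4.45 in BEC and 0.0263 in LEC. The part of endothelial RNA in the mural and fibroblast values was not tested. In myeloid, T or innate lymphoid, B or plasma and glial cells there were 2 Plvap UMIs in all.

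Among the caveolins, Cav1 and Cav2 had the same order of classes, with LEC above BEC, mural cells and fibroblasts. Cav1, the main structural caveolin, measured 1177, 979 and 1042 CPM in LEC and 925, 576 and 389 CPM in BEC. These ranges did not overlap, with a log2 fold change of 0.86 ± 0.22 (adjusted p = 0.0253). Mural cells had 273 ± 48.5 and fibroblasts 211 ± 63.8 CPM, ranges that overlapped each other but neither of the endothelial classes. Epithelial, myeloid and T or innate lymphoid cells reached at most 20.3 CPM.

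In single-gate BEC, Cav1 rose to 1048, 789 and 593 CPM, and library 1 then overlapped the LEC range. Against these cells the LEC excess was 0.41 (adjusted p = 0.0534). When the LEC that had Flt1 or met another gate were left out too, it was 0.49 and passed (adjusted p = 0.00518). With no replicate block the difference did not pass either (0.80, adjusted p = 0.0873). Cav1 was higher in LEC in all 16 alternatives, at 0.41 to 1.15, and missed the threshold in those 2.

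Cav2, which needs CAV1 to reach the cell surface, measured 324, 270 and 296 CPM in LEC, 205, 151 and 102 CPM in BEC, 36.7, 32.6 and 72.1 CPM in mural cells and 9.06, 16.6 and 12.4 CPM in fibroblasts. These 4 ranges did not overlap. LEC exceeded BEC by 1.03 ± 0.22 (adjusted p = 0.00956), mural cells by 2.68 ± 0.25 (adjusted p = 7.74e-06) and fibroblasts by 4.48 ± 0.20 (adjusted p = 5.26e-06) on the log2 scale. In single-gate BEC, Cav2 was 226, 195 and 266 CPM, the LEC excess was 0.38 and the adjusted p 0.161. With stricter gates it was 0.31 (adjusted p = 0.324). Cav1 exceeded mural cells by 1.94 ± 0.20 (adjusted p = 1.86e-05) and fibroblasts by 2.45 ± 0.14 (adjusted p = 1.41e-05).

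The ratio of the caveolins was higher in fibroblasts than in endothelial classes, and higher in the mean in mural cells. Mural cells overlapped BEC, with 4.48 in mural library 3 and 4.51 in BEC library 1. Cav1 UMIs per Cav2 UMI were 3.59 ± 0.06 in LEC, 4.04 ± 0.41 in BEC, 6.24 ± 1.54 in mural cells and 18.5 ± 11 in fibroblasts (SD, n = 3). Such a ratio is compared only between classes, since capture may differ between genes.

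The cavins divided sharply. Cavin1, the cavin that all caveolae use, varied least: 392, 334 and 339 CPM in LEC, 532, 481 and 337 CPM in BEC, 532, 490 and 423 CPM in mural cells and 343, 341 and 324 CPM in fibroblasts. Each class overlapped the next in this order of means, from mural cells down to fibroblasts. The difference of LEC did not pass against BEC (log2 -0.30, approximate 95% interval -0.67 to 0.06, adjusted p = 0.325), mural cells (-0.48, -0.86 to -0.10, adjusted p = 0.0763) or fibroblasts (0.15, -0.06 to 0.35, adjusted p = 0.303). The mural excess passed with equal cell numbers (-0.78, adjusted p = 0.0168) and with at least 1000 genes and at most 10% mitochondrial UMIs (-0.54, adjusted p = 0.048). Against fibroblasts, LEC with 0 Flt1 UMIs that met no other gate passed at 0.19 (adjusted p = 0.0476). Single-gate BEC had 560, 559 and 307 CPM (log2 -0.42, adjusted p = 0.0822). Epithelial cells had 4.08 ± 0.80 CPM, far below these 4 classes, and glia had a pooled 226 CPM (exact 95% Poisson interval 159 to 311, 37 UMIs).

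Cavin2, a cavin known to help shape caveolae in some endothelia, was the lymphatic member of the set. It measured 4149, 3411 and 3869 CPM in LEC against 829, 722 and 335 CPM in BEC, a ratio of means of 6.06 (log2 2.71 ± 0.28, adjusted p = 0.000179). Single-gate BEC had 904, 1027 and 661 CPM, still below every LEC library (log2 2.14). Mural cells had 202, 263 and 331 CPM and fibroblasts 101, 81.8 and 115 CPM. LEC exceeded them by 3.81 ± 0.25 (adjusted p = 9.99e-07) and 5.34 ± 0.13 (adjusted p = 2.64e-06) on the log2 scale. The direction and the call against BEC held in all 16 alternatives, the smallest value being 2.14.

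Cavin3 ran the opposite way. It measured 174, 183 and 174 CPM in LEC, 494, 607 and 596 CPM in BEC, 759, 507 and 778 CPM in mural cells and 332, 320 and 317 CPM in fibroblasts. LEC had the lowest range of the 4 classes, and BEC and mural cells overlapped. LEC over BEC was -1.66 ± 0.17 (adjusted p = 0.000189), over mural cells -1.95 ± 0.20 (adjusted p = 1.97e-05) and over fibroblasts -0.79 ± 0.10 (adjusted p = 0.000553). Single-gate BEC, at 452, 492 and 518 CPM, still lay above every LEC library (log2 -1.46).

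Per Cavin1 UMI, LEC held 10.7 ± 0.62 Cavin2 UMIs, BEC 1.35 ± 0.31 (single-gate BEC 1.87 ± 0.27), mural cells 0.566 ± 0.20 and fibroblasts 0.297 ± 0.06. Cavin3 UMIs per Cavin1 UMI were 0.502 ± 0.05 in LEC, 1.32 ± 0.42 in BEC, 1.43 ± 0.40 in mural cells and 0.961 ± 0.02 in fibroblasts. The balance of the cavin transcripts in LEC therefore lay outside the range of the other 3 classes on both ratios.

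The EHD genes separated as well. Ehd2, of the caveolar neck, measured similar values in LEC (228, 182 and 193 CPM), BEC (314, 255 and 180 CPM) and mural cells (169, 170 and 229 CPM), whose ranges all overlapped. The LEC to BEC difference was -0.26 (approximate 95% interval -0.65 to 0.12, adjusted p = 0.419) and became -0.55 (adjusted p = 0.0208) with single-gate BEC, which had 313, 309 and 245 CPM. LEC over mural cells was 0.05 (approximate 95% interval -0.34 to 0.44, adjusted p = 0.886). Fibroblasts had 154, 131 and 140 CPM, below LEC by 0.57 ± 0.10 (adjusted p = 0.00315).

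Ehd4, an EHD protein of endosomes and caveolae, measured 1315, 865 and 658 CPM in BEC against 52.3, 57.1 and 50.2 CPM in LEC, a ratio of means of 17.8 (log2 -4.08 ± 0.23, adjusted p = 8.73e-06). In single-gate BEC it was 1526, 1181 and 1437 CPM (log2 -4.69). Myeloid cells came next in order with 134, 401 and 372 CPM, overlapping mural cells at 202, 180 and 274 CPM. In 58.5% of thinned myeloid cells (51.1 to 65.6) an Ehd4 UMI was found, against 0.532% for Cavin1 in the same cells. Mural cells exceeded LEC by 2.05 on the log2 scale (LEC over mural cells -2.05 ± 0.20, adjusted p = 1.04e-05), and LEC exceeded fibroblasts by 0.94 ± 0.15 (adjusted p = 0.00166). With stricter gates the latter was 0.29 and did not pass (adjusted p = 0.526). Those gates let BEC that met the fibroblast gate count as fibroblasts. Ehd4 UMIs per Ehd2 UMI were 0.267 ± 0.04 in LEC and 3.74 ± 0.41 in BEC.

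Ehd3, an endosomal EHD protein, was low outside BEC. It gave 163, 175 and 59.0 CPM there against 17.7, 15.5 and 16.5 CPM in LEC (log2 -2.85 ± 0.33, adjusted p = 0.000349). Single-gate BEC had 185, 258 and 74.9 CPM, and the value against them was -3.45. Mural cells had 36.7, 18.8 and 39.8 CPM and T or innate lymphoid cells 11.3, 29.4 and 51.5 CPM, which overlapped. Fibroblasts, at 15.1, 19.0 and 18.2 CPM, overlapped LEC (log2 -0.06 ± 0.19, adjusted p = 0.839). The mural excess over LEC was small (LEC over mural cells -0.85 ± 0.29, adjusted p = 0.0401) and missed the threshold in 5 of 13 alternatives, among them without library 1 (-0.75, adjusted p = 0.0905) and without library 3 (-0.58, adjusted p = 0.275).

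**Figure D2:**
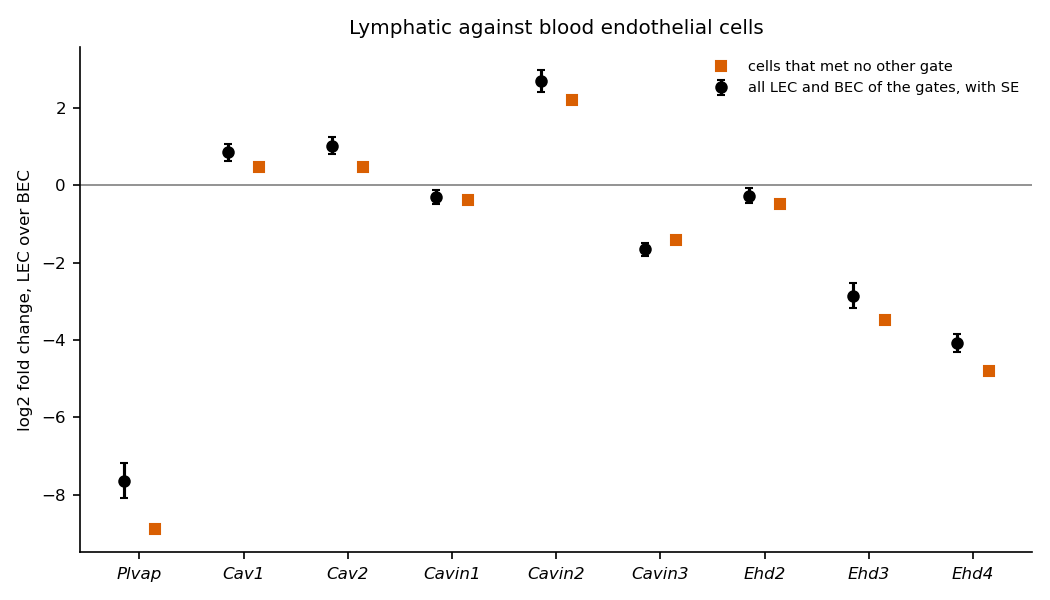
Log2 fold change, LEC over BEC, of the 9 genes. Circles with SE are all cells of the 2 gates (n = 3 libraries), and squares are LEC with 0 Flt1 UMIs and BEC, neither meeting another gate. Plvap and Ehd4 are most negative and Cavin2 most positive in both, and Cav1 and Cav2 shrink to 0.49 and 0.47.

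Against mural cells over 13933 genes, 37.6% passed (20.3% higher in LEC, 17.3% higher in mural cells), and the 9 genes split into 3 higher in LEC (Cav1, Cav2, Cavin2), 3 higher in mural cells (Cavin3, Ehd3, Ehd4) and 3 that did not pass. Their median log2 fold change was -0.48, beside 0.21 over all genes. Against fibroblasts over 14324 genes, 46.8% passed (25.0% higher in LEC, 21.8% in fibroblasts), and the 9 genes split 5, 2 and 2, with a median of 0.57 beside 0.09. In BEC against mural cells over 7252 genes, 18.7% passed (10.8% higher in BEC, 7.9% in mural cells). There 4 of the 9 were higher in BEC and 5 did not pass. They were Plvap (log2 6.80 ± 1.33, adjusted p = 0.0186), Cav2 (1.56 ± 0.42, 0.0452), Ehd3 (1.94 ± 0.51, 0.0436) and Ehd4 (1.94 ± 0.35, 0.0142), each with its adjusted p last. Those that did not pass were Cav1 (1.00 ± 0.35, 0.0928), Cavin2 (1.04 ± 0.41, 0.129), Ehd2 (0.24 ± 0.32, 0.631), Cavin1 (-0.25 ± 0.26, 0.525) and Cavin3 (-0.38 ± 0.29, 0.402). All 4 missed the threshold without library 1 and without library 2, with adjusted p of up to 0.131 for Plvap and 0.204 for Ehd4. The size of the Plvap difference was 5.75 without library 1, 5.84 without library 2, 8.68 without library 3 and 3.55 with stricter gates. Those gates let BEC that met the mural gate count as mural cells (243 cells), and the part of these in the 3.55 was not tested. With single-gate BEC the Plvap difference was 7.03. Without library 3 Ehd3 was 2.66, and without library 2 it was 1.19. With single-gate BEC Plvap, Cav2, Ehd3 and Ehd4 passed, and so did Cav1 (1.36, adjusted p = 0.00318) and Cavin2 (1.52, adjusted p = 0.00191), all higher in BEC. Calls over all genes rose in that fit too, as given in the closing section. Both also passed in 5 other alternatives, among them without library 3. These comparisons share class sums, so they are not independent of each other.

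Within BEC, Ehd3, Cavin2 and Cav1 were highest in cells with venous markers. BEC were divided by fixed markers into an artery gate (Gja5, Gja4, Sema3g), a vein gate (Ackr1, Madcam1, Selp, Sele) and a capillary gate (Rgcc, Gpihbp1, Car4). In single-gate BEC they held 27, 20 and 51 cells and are described without a test. Their median depths were unlike, at 5379, 10681 and 5031 UMIs, and the part of depth or of mixed barcodes in the differences was not tested. The vein gate had 3 cells in library 1 and 17 in library 2. Pooled Ehd3 was 493 CPM in the vein gate (exact 95% Poisson interval 412 to 586, counting error only), 79.6 CPM (42.4 to 136) in the artery gate and 63.2 CPM (36.8 to 101) in the capillary gate. By library, the vein gate had 562 and 481 CPM in libraries 1 and 2, and no library of the other gates exceeded 91.8 CPM. The interval of the vein gate overlapped neither of the others, but these intervals hold no spread between cells or libraries. Library 3, which gave the lowest Ehd3 level of BEC, had no vein-gate cell.

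Cavin2 was highest there too, at 1472 CPM (1329 to 1626) in the vein gate, 808 CPM (676 to 959) in the artery gate and 665 CPM (571 to 770) in the capillary gate, pooled over unlike shares of the libraries. Within libraries 1 and 2, which hold all vein-gate cells, it was 1736 and 1424 CPM in the vein gate, 1332 and 698 CPM in the artery gate and 576 and 837 CPM in the capillary gate. Cav1 measured 1142 CPM (1017 to 1279) in the vein gate, 714 CPM (616 to 822) in the capillary gate and 490 CPM (388 to 610) in the artery gate. Within libraries 1 and 2 these were 1736 and 1033, 847 and 705, and 320 and 459 CPM. The vein gate was thus highest in both libraries for both genes, on 3 cells in library 1. Plvap spanned 3386 to 4033 CPM over the 3 gates, and Ehd4 1127 to 1419 CPM. Pooled Cavin1 was 694 CPM in the vein gate, 490 CPM in the artery gate and 450 CPM in the capillary gate, with overlapping intervals of vein and artery gates. Cav2, Cavin3 and Ehd2 had intervals that overlapped between all 3 gates.

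Fibroblasts were divided by Wnt5a, a marker of the stromal cells beneath the epithelium, a division chosen after the class levels were seen and therefore not tested. Cav1 was 609, 371 and 391 CPM in the 184 fibroblasts with a Wnt5a UMI and 26.9, 47.0 and 26.3 CPM in the 289 with 0. The groups did not overlap, so most of the fibroblast Cav1 came from Wnt5a-positive cells. Median depths were 9414 and 8708 UMIs. Markers of other classes moved with the division. Those of BEC summed to 31.4 to 89.4 CPM in Wnt5a-positive and 6.57 to 24.2 CPM in the other fibroblasts (5 markers, Sox17 at 0 in both), and those of mural cells to 1269 to 1836 against 730 to 1037 CPM. Their part in the differences was not tested. Ehd4 was also apart, at 30.9, 48.8 and 60.6 CPM against 16.2, 16.8 and 15.8 CPM. Cavin1 differed less (385, 400 and 386 against 310, 296 and 288 CPM), and Cavin3 and Ehd2 overlapped. Cav2 and Cavin2 were also higher without overlap (Cavin2 110, 101 and 193 against 94.3, 66.6 and 69.6 CPM), and Ehd3 was lower (6.88, 18.1 and 6.73 against 21.6, 19.6 and 25.0 CPM). Plvap was higher in Wnt5a-positive cells of libraries 1 and 2 (113 and 69.6 against 18.9 and 16.1 CPM) and lower in library 3 (18.0 against 46.0 CPM).

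**Figure D3:**
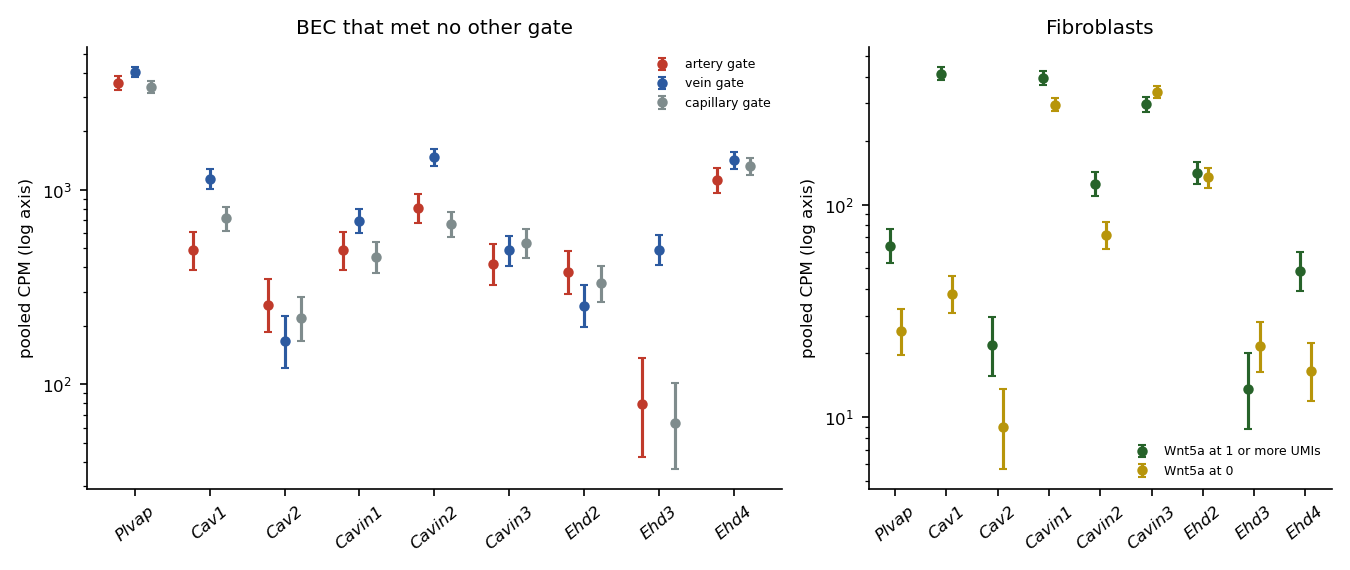
Pooled CPM (log axis) of the 9 genes with exact 95% Poisson intervals. Left, BEC that met no other gate, divided into artery, vein and capillary gates. Right, fibroblasts with at least 1 and with 0 Wnt5a UMIs. Ehd3 is higher in the vein gate, and Cav1 separates the fibroblast groups.

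Among LEC, Cav1 and Cavin2 were higher on the Clca3a1 side. LEC with at least 2 Clca3a1 and 0 Itih5 UMIs (1755 cells) were set against LEC with at least 2 Itih5 and 0 Clca3a1 UMIs (4819 cells) (gate genes that are not members). Over 12171 genes 21.3% passed (11.3% higher in Itih5-gated, 9.97% in Clca3a1-gated LEC). By total UMIs alone in place of TMM scaling, 65.7% of calls were higher in Itih5-gated LEC, against 53.1%. Of the 9 genes 4 were higher in Clca3a1-gated LEC and 5 did not pass. Their median was -0.17 (Itih5- over Clca3a1-gated) beside 0.01 over all genes. The 5 further BEC markers summed to 1017 to 1165 CPM in Clca3a1-gated and 792 to 972 CPM in Itih5-gated LEC, and median depths were 7101 and 8412 UMIs. The part of these in the differences was not tested.

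Cav1 measured 1524, 1208 and 1306 CPM in Clca3a1-gated and 1008, 850 and 915 CPM in Itih5-gated LEC, without overlap (log2 -0.59 ± 0.04, adjusted p = 3.27e-05). Cavin2 measured 4652, 3798 and 4344 CPM against 3792, 3139 and 3583 CPM, higher in each library, with the lowest of the former just above the highest of the latter (-0.34 ± 0.04, adjusted p = 0.000225). Cav2 differed by only -0.19 ± 0.05 (adjusted p = 0.0334), and 6 of 14 alternatives lost it, among them without library 1 and without library 2. Cavin1 (-0.17 ± 0.06, adjusted p = 0.0612), Cavin3 (-0.13 ± 0.06, adjusted p = 0.163), Ehd2 (-0.09 ± 0.06, adjusted p = 0.308), Ehd3 (0.18, adjusted p = 0.435) and Ehd4 (0.15, adjusted p = 0.486) did not pass. With no replicate block Cav1 alone of the 9 passed, at an adjusted p of 0.013 or less in all alternatives. Plvap passed in the fit of all LEC (-1.72 ± 0.47, adjusted p = 0.0303), on 13.1, 80.1 and 9.47 CPM against 8.20, 8.36 and 7.42 CPM. Without library 2 the Plvap difference was -0.58 (adjusted p = 0.0475). In LEC with 0 Flt1 UMIs that met no other gate it was -0.14 (adjusted p = 0.63). In those same cells Ehd4 (0.41, adjusted p = 0.000346) and Ehd3 (0.33, adjusted p = 0.0473) were higher on the Itih5 side, and Cavin1 (-0.16, adjusted p = 0.0164) on the Clca3a1 side. Without library 2 Ehd4 also passed (0.39, adjusted p = 0.0068).

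Proliferating LEC had lower CPM of Cav1, Cav2, Cavin1, Cavin2, Ehd2 and Ehd3 and higher CPM of Ehd4. LEC with at least 5 UMIs from at least 3 of Mki67, Top2a, Birc5, Cdk1 and Ube2c (207 cells) were compared with LEC that had none (17865 cells). Over 13701 genes 38.9% passed (20.5% higher, 18.4% lower in proliferating LEC). Of the 9 genes 1 was higher, 6 were lower and 2 did not pass, with a median of -0.86 beside -0.05 over all genes. Proliferating cells were deeper, with a median of 16482 against 7171 UMIs. Their further lymphatic markers summed to 4698 to 7254 CPM against 12844 to 14735 CPM, and their epithelial markers to 305 to 2547 CPM against 80.5 to 299 CPM. In library 2 their mural markers summed to 1388 against 308 CPM and their myeloid markers to 196 against 59.5 CPM. The part of these in the differences was not tested.

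Cav1 measured 577, 324 and 459 CPM in proliferating and 1199, 1047 and 1065 CPM in other LEC (log2 -1.42 ± 0.16, adjusted p = 0.000109). Cavin2 measured 2041, 1251 and 2023 against 4221, 3630 and 3945 CPM (-1.28 ± 0.16, adjusted p = 0.000219). Cav2 fell by 1.10 ± 0.19 on the log2 scale (adjusted p = 0.00132). No library overlapped between the groups for these 3 genes, and all 12 alternatives kept their calls. Ehd3 was lower at 5.27, 3.68 and 3.34 against 17.8, 16.3 and 17.1 CPM (-2.18 ± 0.30, adjusted p = 0.000327), on 18 UMIs in proliferating cells. Thinned to 3000 UMIs per cell that difference was -1.18 (adjusted p = 0.195). Cavin1 (-0.68 ± 0.16, adjusted p = 0.00643) and Ehd2 (-0.73 ± 0.17, adjusted p = 0.00631) were also lower. Cavin1 was -0.28 (adjusted p = 0.00975) in LEC with 0 Flt1 UMIs that met no other gate. Without library 3 Cavin1 gave an adjusted p of 0.088 and Ehd2 0.0863, and Ehd2 missed in 4 of 12 alternatives.

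Ehd4 was higher in proliferating LEC, at 103, 58.4 and 88.6 against 50.9, 56.3 and 49.0 CPM (0.54 ± 0.18, adjusted p = 0.0417). It missed in 4 of 12 alternatives, among them without library 1 (0.34, adjusted p = 0.22) and without library 3 (0.44, adjusted p = 0.235). Cavin3 measured 354, 161 and 311 against 170, 187 and 173 CPM, with library 2 on the other side, and did not pass (0.47 ± 0.22, adjusted p = 0.118). In LEC with 0 Flt1 UMIs that met no other gate, Cavin3 was 1.04 higher (adjusted p = 4.2e-13) and Ehd4 0.99 higher (adjusted p = 3e-09), while Cav2 was -0.55 and Ehd2 -0.21 (adjusted p = 0.113). Library 2, which differed from the others for Cavin3, had the 2547 CPM of epithelial and 1388 CPM of mural markers. Without library 2, Cavin3 passed (0.83, adjusted p = 5.71e-06). Plvap, at 8.43, 4.90 and 13.4 against 8.23, 28.2 and 8.31 CPM, did not pass (-0.86 ± 0.52, adjusted p = 0.223). It passed without library 1 (-1.16, adjusted p = 0.00548) and without library 3 (-1.64, adjusted p = 0.0257), and without library 2 it was 0.29.

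**Figure D4:**
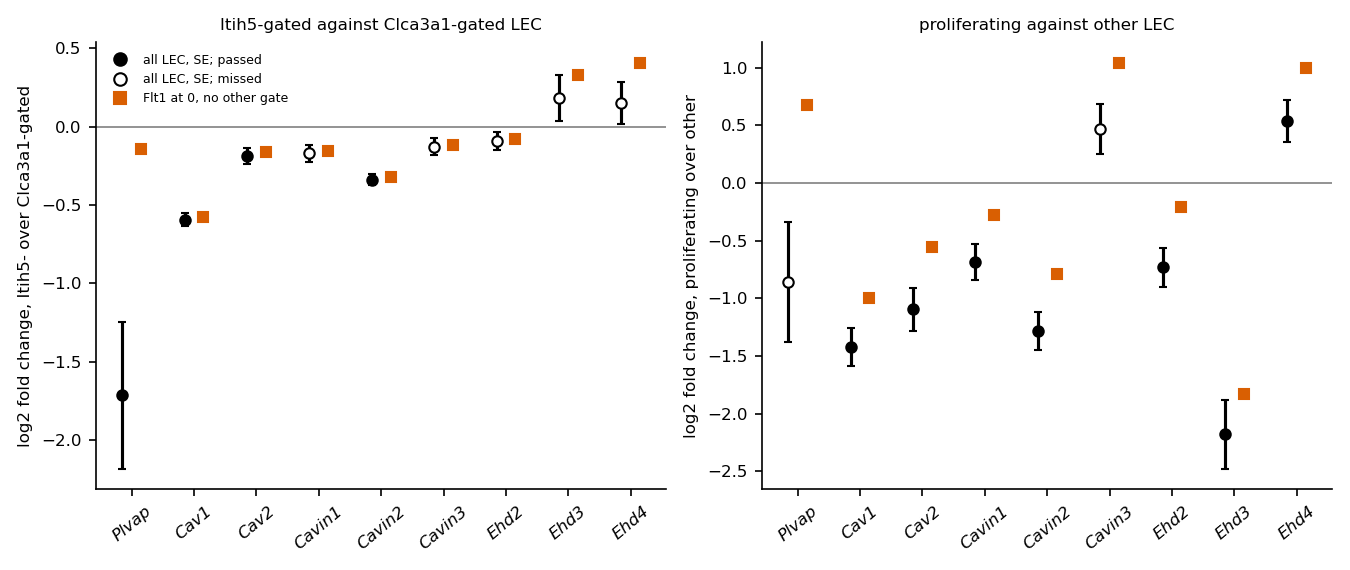
Log2 fold change of the 9 genes between LEC groups. Left, Itih5-gated over Clca3a1-gated LEC. Right, proliferating over other LEC. Circles with SE are all LEC (n = 3 libraries, filled where the gene passed), squares are LEC with 0 Flt1 UMIs that met no other gate. Cav1 and Cavin2 lie below 0 in both, and Plvap moves most between circles and squares.

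Across single LEC, Cavin2 was nearly universal, with a spread above counting error but below the median of genes of like mean. Thinned to 3000 UMIs, it was detected in 99.8% of LEC, Cav1 in 92.9%, Cavin1 in 64.8%, Cav2 in 58.1%, Ehd2 in 45.0%, Cavin3 in 38.4%, Ehd4 in 13.1% and Ehd3 in 4.69%. Cavin2 averaged 12.7, 11.1 and 11.9 UMIs per thinned cell, with 10th and 90th percentiles of 6 and 20, 5 and 18, and 6 and 18. Its variance over mean was 2.34, 2.31 and 2.09, below the medians of 3.58, 2.81 and 3.15 among the 11 to 14 genes of like mean. Counting error alone gives 1. Cav1, at 3.59, 3.26 and 3.22 UMIs per cell, had 1.58, 1.56 and 1.51, above the medians of 1.40, 1.46 and 1.38. Cavin3 had 1.18, 1.21 and 1.19 beside medians of 1.10, 1.11 and 1.09, and Ehd4 1.08, 1.21 and 1.15 beside 1.05, 1.05 and 1.04. Cavin1 (1.13, 1.08 and 1.10) and Ehd2 (1.04, 1.09 and 1.05) lay below their medians in each library. Plvap in library 2 reached 4.43 against a median of 1.03. Over thinned cells the highest correlation that held in each library was that of Cav1 with Cavin2 (Pearson r of 0.21 to 0.23, a description over cells that share a library). Other pairs of the caveolar genes were weaker, and Cav1 with Cav2 had 0.08 to 0.09.

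**Figure D5:**
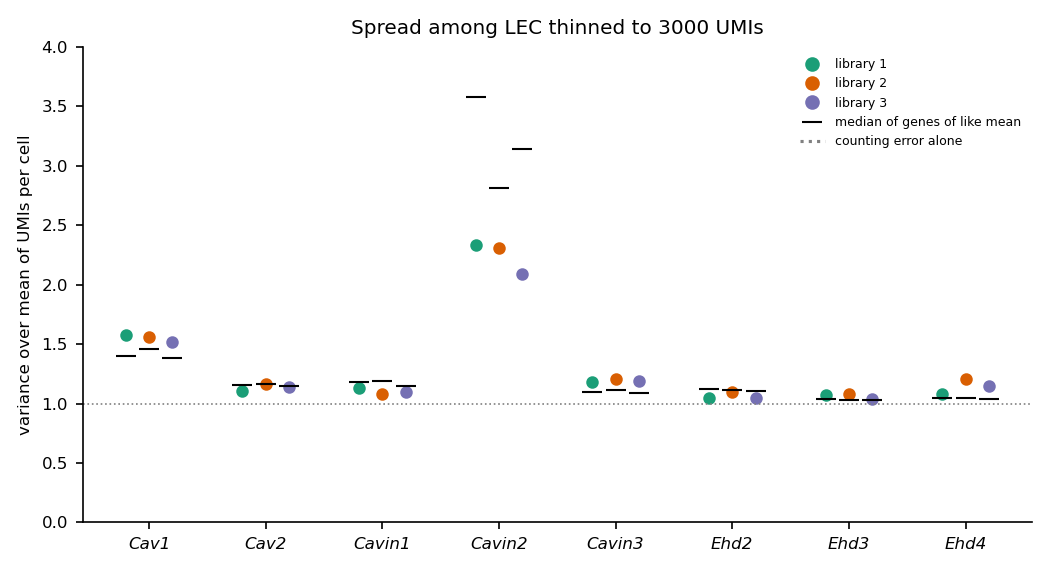
Variance over mean of UMIs per LEC, thinned to 3000 UMIs, for 8 genes in 3 libraries (Plvap, below the minimum level in 2 libraries, is left out). Ehd3 is shown although it was also below that minimum in libraries 2 and 3. Bars are medians of genes of like mean, and the dotted line is counting error alone. Cavin2 lies under its bars and Cav1 above.

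Genes with the most similar levels over 24 class sums of 9 classes were named by Pearson r of log2(CPM + 1). For Plvap these were Samd12 (0.95), Ly6c1 and Exoc3l2, for Cav1 Tmem204 (0.96) and Ehd2, and for Cav2 Nhsl2 (0.96), Ecscr and Ripor1. Cavin1 was closest to Cavin3 (0.98), Col4a2 and Wwtr1, and Cavin3 to Col4a2 (0.98), Cavin1 and Kank2. Cavin2 was closest to Gng11 (0.95), Cav2 and Ecscr. Ehd2 was closest to Tmem204, Plpp3 and Pros1. Ehd3 (Rapgef1, 0.90) and Ehd4 (BC028528, 0.89) had weaker nearest genes. The sums share libraries and depth, so these values describe the classes and carry no p.

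Other genes of the pathway were read from 3 lists. Of 14 further coat, neck and scaffold genes 11 were tested in LEC against BEC, where 3 were higher in LEC, 3 in BEC and 5 did not pass. Over all genes tested there, 8.83% were higher in LEC and 9.99% in BEC. Ehd1, an EHD gene of endosomal recycling, stood at 273 against 40.9 CPM (log2 2.65 ± 0.34, adjusted p = 0.000546), opposite in direction to Ehd3 and Ehd4. Nostrin, which binds endothelial nitric oxide synthase, was 3.35 against 83.5 CPM (-4.79 ± 0.54, adjusted p = 0.000296), and the dynamin gene Dnm3 5.97 against 67.0 CPM. Muscle caveolin Cav3 had 26.6 CPM in mural cells and 0.289 CPM in LEC (LEC over mural cells -7.10 ± 0.86, adjusted p = 6.03e-05). The list's median was 0.28, beside 0.09 over all genes.

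Of 12 cargo and transcytosis genes 11 were tested, with 4 higher in LEC, 6 in BEC and 1 not passing (median -1.08). The shares over all genes were again 8.83% higher in LEC and 9.99% higher in BEC. Aqp1, a water channel found in caveolae, was 1997 CPM in LEC and 198 CPM in BEC (3.70 ± 0.50, adjusted p = 0.00083). Scarb1, a lipoprotein receptor, was 4.10 against 228 CPM, and Nrp1, a co-receptor of VEGF, 3.35 against 593 CPM. Of the 12 clathrin coat genes 3 were higher in LEC, 1 in BEC and 8 did not pass (median 0.22). In either direction 18.8% of all genes passed. Dab2, a clathrin adaptor, was 389 CPM in LEC and 191 CPM in BEC (1.25 ± 0.25, adjusted p = 0.00761).

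Between Itih5- and Clca3a1-gated LEC, 1 coat, neck and scaffold gene was higher in Itih5-gated and 2 in Clca3a1-gated LEC (10 tested), beside 11.3% and 9.97% of all genes. The 2 were the flotillin genes Flot1 (41.4 against 64.1 CPM, -0.68 ± 0.06, adjusted p = 9.56e-05) and Flot2 (38.0 against 48.3 CPM). Of 11 cargo genes 2 were higher in Itih5-gated and 6 in Clca3a1-gated LEC, with Aqp1 at 2434 against 1092 CPM and Cd36 at 30.5 against 68.9 CPM. Only 1 of 12 clathrin genes passed, Ap2a2. In proliferating LEC 8 of 11 cargo genes were lower and 3 did not pass, beside 18.4% of all genes lower and 20.5% higher. There 5 of 10 coat, neck and scaffold genes were lower, while 3 of 12 clathrin genes were lower and 1 was higher.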

How the data were processed

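The authors deposited raw UMI counts as whole numbers. The submitters' processing notes name Cell Ranger 6.1.2, bcl2fastq 2.2 and mm10. No source used here names the annotation release. Kept barcodes had at least 500 genes, with mitochondrial UMIs at or below 15%. The 3 files totalled 58857545, 69231794 and 74571090 UMIs over 6931, 7678 and 9932 barcodes, with 13 to 30 barcode sequences shared between pairs of libraries. No doublet caller was run. Cells of another gate were counted, and leaving out the top 5% by UMIs was an alternative. Cells outside the LEC and BEC gates with 0 Prox1 UMIs needed 8 UMIs from 3 genes of a marker list, and cells that met several gates went to the highest sum only if it was 2 times the next. Cells in no class were 6.10% to 8.99%. Under stricter gates, cells that left the BEC because they met another gate could enter the class of that gate.

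Counts were summed per library and class (at least 10 cells) and tested by quasi-likelihood in edgeR 4.0.16 under R 4.3.3 (glmQLFit and glmQLFTest after filterByExpr and TMM scaling). The library was a block, as both sums come from the same mice and run. Benjamini-Hochberg adjustment covered all tested genes but the gate genes, with a threshold of 0.05. Standard errors were derived from the fold change and its F statistic. The approximate intervals of fold changes apply the multiplier of a normal distribution to these errors, so with so few sums they are too narrow. Same-library sums deviated together with r of 0.11 to 0.63 in 4 comparisons and -0.24 to 0.28 in the 2 with BEC. DESeq2 1.42.0 was an alternative. The test was also run on counts simulated for LEC against BEC and for Itih5- against Clca3a1-gated LEC, with no library effect beyond depth. No result given here rests on that run. All 9 members are named in each tested comparison. From each list at most 2 genes per direction follow a rule: largest fold, same sign in 3 libraries, at least 20 CPM. Members and lists were chosen with earlier results of these data known. The alternatives that restrict LEC or BEC to cells meeting no other gate were added after seeing the data. One gene named by the likeness rule is not reported here.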

Additional observations from a re-analysis of the deposited data

How the results depend on the processing

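The calls of higher Cavin2, Plvap, Cavin3, Ehd3 and Ehd4 between LEC and BEC held in all 16 alternatives. The cause of each change below was not tested, and several of the alternatives also left fewer samples or cells. Over all genes, leaving out a library gave 1670 (without library 1) to 2648 calls for LEC against BEC (2598 with all), 4360 (without library 3) to 6080 for LEC against fibroblasts (6707) and 1608 (without library 3) to 2595 for Itih5- against Clca3a1-gated LEC (2589). BEC against mural cells (1356) gave 517 without library 1, 69 without library 2 and 2435 without library 3. The members called in BEC against mural cells then numbered 0 to 6. With cells thinned to 3000 UMIs, LEC against mural cells gave 3360 (5232), BEC against mural cells 865 and proliferating against other LEC 2655 (5334). The last gave 3458 without the top 5% of cells. With equal cell numbers LEC against mural cells gave 2664, and in BEC against mural cells only Plvap and Ehd4 of the members passed. The same held there with at least 1000 genes and at most 10% mitochondrial UMIs. BEC against mural cells gave 2278 with no filter on low counts and 2364 with BEC that met no other gate. Itih5- against Clca3a1-gated LEC gave 1371 with DESeq2, 1454 with gates at 4 UMIs, and 954 with 1 member called with no replicate block. The other comparisons kept within 1.5 times of their counts without the block. By total UMIs alone, the median of all genes in BEC against mural cells moved from 0.01 to 0.15 (log2).

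The genes whose direction turned had not passed with all libraries. In LEC over mural cells Plvap was 0.38 with DESeq2, ran from -2.86 to 2.05 with a library left out, and was -4.75 with stricter gates. The mural class of those gates could take in BEC that met the mural gate. Ehd2 there was -0.26 with equal cell numbers and -0.10 to 0.26 with a library left out. In LEC over fibroblasts Cavin1 was -0.13 with equal cell numbers, and Ehd3 ran from -0.21 to 0.078 with a library left out. In Itih5- over Clca3a1-gated LEC, Ehd3 was -0.13 and Ehd4 -0.11 with gates at 4 UMIs, and Ehd4 ran from -0.045 to 0.39 with a library left out. In proliferating over other LEC, Plvap was 0.66 thinned, 0.0895 without the top 5% of cells, 0.67 in LEC with 0 Flt1 UMIs that met no other gate, and -1.64 to 0.29 with a library left out. Depth limits Ehd3 and Plvap in LEC and all genes in BEC, where 1 library held 38 cells.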
